A study of Mus musculus with 12 samples.

Results

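Matrix metalloproteases (Mmp), the Adamts proteases with their Adamts-like relatives (Adamtsl), and the tissue inhibitors of metalloproteases (Timp) were followed across 4 cell populations sorted from the mouse aorta and the fat around it. Members were every row of the gene count table whose symbol begins with Adamts, is Mmp followed by a digit, or is Timp1, Timp2, Timp3 or Timp4. This gave 50 of the 33352 rows, made up of 22 Mmp, 19 Adamts, 5 Adamtsl and 4 Timp genes. The populations were called SMC2, SMC1, Intermediate and Progenitor, with 3 libraries each, and all came from wild-type adult male CD-1 mice, an outbred stock, aged 13 weeks. The labels name no transgene or treatment in any group. SMC1 and SMC2 are labelled as smooth muscle cells, and the Intermediate and Progenitor cells as perivascular cells. How the populations were gated is not given in the sources used here. It is therefore not known whether a gene described below also served to sort the cells.

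Mmps are zinc proteases that cleave collagens, proteoglycans and other proteins around the cell, and they are made as inactive proenzymes that another protease must open. Adamts enzymes carry thrombospondin repeats that hold them in the matrix, and their best known tasks are the cleavage of large proteoglycans such as versican and aggrecan and the trimming of procollagen. Adamtsl proteins have the same repeats but no protease domain, and several of them bind fibrillin microfibrils. Timps bind the active site of Mmps, and Timp3 also blocks several Adamts proteases. In an artery, smooth muscle cells lie in the media among elastic sheets, whereas fibroblast-like cells lie in the adventitia and the fat around it.

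Each library held between 13258631 and 22647175 counts. Levels are given in CPM, the count of a gene scaled to the size of its library with TMM factors. A change is a log2 difference, called with edgeR's quasi-likelihood test at a Benjamini-Hochberg adjusted p under 0.05 over the 19016 genes tested. Its standard error (SE) was derived as the absolute log2 difference divided by the square root of that test's F statistic. Where genes are compared with one another, CPM per kilobase of exon was used. The populations matched their labels in marker genes. Summed over 6 fibroblast markers, the level was 143 to 293 CPM in SMC2, 709 to 1215 in SMC1, 14550.5 to 19225 in Intermediate and 13152 to 14698 in Progenitor, and over 6 smooth muscle markers it was 18399.8 to 26300.4, 28800.2 to 34880.0, 470.0 to 607 and 206 to 507 CPM in the same order. Markers of other cells were also present. The 6 adipocyte markers summed to 543 to 653 CPM in SMC2, 7.88 to 17.6 in SMC1, 3.54 to 4.47 in Intermediate and 22.1 to 48.6 in Progenitor. In SMC2 this came from Pparg, Adipoq, Cidec and Plin1, and the other pair of that list, Lep and Ucp1, had at most 2.94 CPM in any SMC2 library. The 7 mesothelial markers summed to 15.2 to 38.8 CPM in SMC2, 36.1 to 68.7 in SMC1, 167 to 399 in Intermediate and 25.7 to 44.9 in Progenitor, and the 6 endothelial markers to 50.1 to 126, 299 to 390.3, 91.8 to 139 and 172 to 230.1 CPM in that order. The 4 Schwann cell markers summed to 65.2 to 125, 21.2 to 38.4, 10.6 to 26.9 and 8.25 to 11 CPM. B and plasma cell markers, 4 genes, summed to 1.89 to 10.7 CPM in SMC2, 11.2 to 26.3 in SMC1, 1.30 to 3.70 in Intermediate and 24.4 to 35.7 in Progenitor. SMC1 replicate 1 stood apart in the 6 neutrophil markers, which summed to 50.7 CPM there and to 4.48 and 4.86 CPM in the other SMC1 libraries. Its 7 macrophage markers summed to 126 CPM, beside at most 54.3 CPM in any other library. The labels do not say that a replicate number is an animal, so every p-value rests on the spread among these 12 libraries, and part of that spread may be technical. In bulk RNA, fewer cells of a type and less RNA per cell cannot be told apart.

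Most of the 50 genes differed between the populations. Most of those described one by one had their highest mean in the Intermediate or the Progenitor cells. Of the 43 members with enough counts to test, 37 differed somewhere among the 4 populations, which is 86% beside 66.2% of all genes tested. These were 18 of 19 Adamts, 5 of 5 Adamtsl, 10 of 15 Mmp and 4 of 4 Timp genes. Of the 37, 29 reached a mean of 10 CPM in their highest population, and these are described one by one. The highest mean lay in SMC2 for 6 of the 29, in SMC1 for 3, in Intermediate for 13 and in Progenitor for 7. Among all 43, these populations led in that order for 0, 4, 5 and 6 Mmp and 6, 1, 8 and 4 Adamts genes. For Adamtsl genes the numbers were 1, 1, 1 and 2, and for Timp genes 1, 0, 3 and 0. The same tally was not made over all genes. For 24 of them the highest population's mean was at least 4 times the lowest, for 17 at least 10 times, and the median ratio was 13.0. The 29 were chosen for a called difference and a high level, which raises such ratios. No ratio was computed for other genes chosen in that way. Among the 43, 12 (27.9%) were lower in each of the 6 SMC libraries than in any Intermediate or Progenitor library, beside 11.2% of all genes tested. These were Adamts2, Adamts7, Adamts12, Adamtsl2, Adamtsl3, Mmp2, Mmp3, Mmp19, Mmp23, Mmp27, Timp1 and Timp2. The reverse pattern was seen for 4 (9.3%), Adamts1, Adamts8, Mmp17 and Timp4, close to the 10.1% of all genes.

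**Figure D1:**
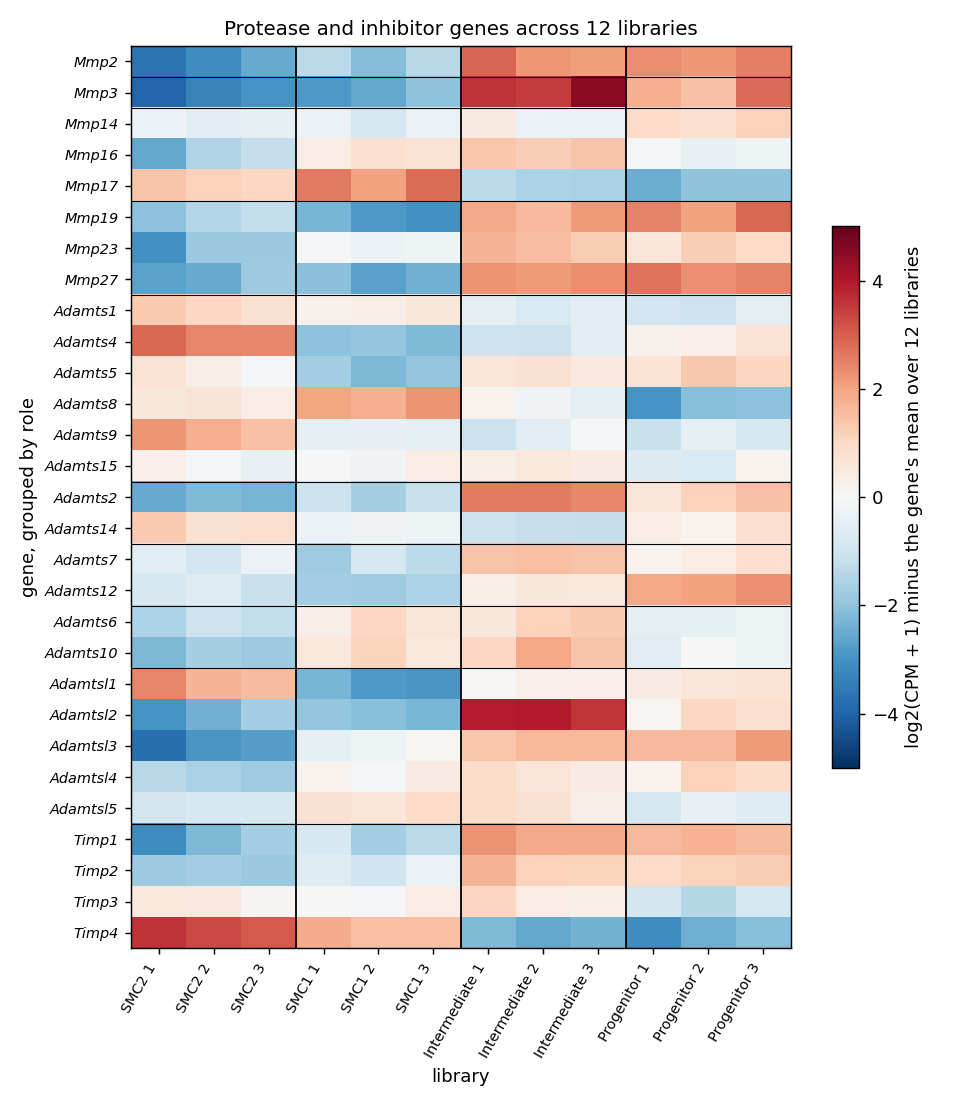
Level of the 29 members described one by one in the 12 libraries, as log2(CPM + 1) after subtraction of each gene's mean over all libraries. Columns are libraries in the order SMC2, SMC1, Intermediate and Progenitor. Rows are genes grouped by role, and colour gives the difference from the gene's mean in log2 units. Timp4 and Mmp17 stand out in the SMC columns and Adamts8 in the SMC1 columns. Mmp2, Mmp3, Mmp19 and Mmp27 stand out in the Intermediate and Progenitor columns, and Adamtsl2 in the Intermediate columns.

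The most abundant secreted Mmps, Mmp2 and Mmp3, were high in the Intermediate and Progenitor cells. Mmp2 encodes gelatinase A, which cleaves basement membrane collagen and unwound collagen (chromosome 8, 92827291 to 92853420, GRCm38, plus strand). Its level was 30.6, 47.3 and 70.3 CPM in SMC2, 160.0, 89.8 and 156 in SMC1, 3092, 1873 and 1760.5 in Intermediate, and 2149.7, 1876 and 2374 in Progenitor. All Intermediate and Progenitor libraries exceeded all SMC libraries, and SMC1 exceeded SMC2 without overlap. The log2 difference was -5.51 ± 0.35 between SMC2 and Intermediate and -4.05 ± 0.32 between SMC1 and Intermediate (edgeR adjusted p = 1.21e-10 and 4.42e-09). Between Intermediate and Progenitor it was 0.07 ± 0.28 (edgeR adjusted p = 0.888), which was not called. Mmp2 was the second most abundant member per kilobase in both of these populations, at 665 ± 219 CPM per kilobase in Intermediate and 633 ± 73.9 in Progenitor (SD, n = 3 each). SMC2 had less than SMC1, with a log2 difference of -1.46 ± 0.29 (edgeR adjusted p = 6.37e-04).

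Mmp3 encodes stromelysin, a protease of proteoglycans and several other matrix proteins that also opens other proenzymes (chromosome 9, 7445822 to 7455975, GRCm38, plus strand). Its level was 3.96, 6.57 and 8.7 CPM in SMC2, 9.42, 12.1 and 18 in SMC1, 926, 869 and 1749 in Intermediate, and 264, 208 and 540.1 in Progenitor. The Intermediate libraries were all above the Progenitor libraries, and both were far above the SMC libraries. SMC2 lay below SMC1 without overlap, at -1.05 ± 0.41 (edgeR adjusted p = 0.0594). That difference was not called, but 7 of 18 alternatives called it. Intermediate exceeded Progenitor by 1.81 ± 0.38 on the log2 scale (edgeR adjusted p = 0.00317), and SMC2 was below Intermediate by a log2 difference of -7.53 ± 0.50 (edgeR adjusted p = 5.17e-09), the most negative value of any member in the 6 comparisons. Intermediate replicate 3 had the most Mmp3 and also the highest mesothelial sum, 399 CPM beside 178 and 167 CPM in the other Intermediate libraries. Without that library the difference from Progenitor was 1.43 ± 0.36 (edgeR adjusted p = 0.0141). The part of the mesothelial markers in Mmp3 was not tested.

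Mmp3 is 1 of 9 Mmp genes that stand in a row on chromosome 9, in the order Mmp13, Mmp12, Mmp1b, Mmp3, Mmp1a, Mmp10, Mmp8, Mmp27 and Mmp20. Only 2 of the 9 had a mean above 10 CPM in any population. The other was Mmp27, a little studied member of the stromelysin group (chromosome 9, 7571396 to 7581885, plus strand). Mmp27 stood at 0.414, 0.543 and 1.56 CPM in SMC2, 1.12, 0.373 and 0.703 in SMC1, 41.9, 38.4 and 43.3 in Intermediate, and 58, 42.6 and 48.6 in Progenitor. The SMC libraries lay near the detection floor and the Intermediate and Progenitor libraries overlapped, with a log2 difference of -0.27 ± 0.24 between them (edgeR adjusted p = 0.457). SMC1 was below Progenitor by a log2 difference of -6.09 ± 0.34 (edgeR adjusted p = 2.82e-11). Between these 2 expressed genes lie Mmp1a, Mmp10 and Mmp8, and Mmp3 and Mmp1a are 8165 bases apart. Mmp1a and Mmp10 had no library above 0.505 and 0.41 CPM. A floor of 3 counts corresponds to 0.137 to 0.200 CPM in these libraries. Mmp13, Mmp12, Mmp1b and Mmp20 had at most 0.198, 0.505, 0.255 and 0.54 CPM. Mmp1a and Mmp1b are related copies of a gene, and the exons of Mmp12 and Mmp1b overlap in the annotation, so the counts of these rows are uncertain.

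Mmp8, the collagenase of neutrophils, lies 2910 bases from Mmp27 and had 0.46, 0.593 and 1.38 CPM in SMC2, 2.9, 0.187 and 0.527 in SMC1, 0.373, 0.126 and 0.255 in Intermediate and 0.729, 0.333 and 0.758 in Progenitor. The single value above 2 CPM belonged to SMC1 replicate 1, the library with the high neutrophil sum, whose part in Mmp8 was not tested. SMC1 exceeded Intermediate by 2.23 ± 0.84 on the log2 scale (edgeR adjusted p = 0.0385), but the difference was 0.48 ± 0.84 without that library (edgeR adjusted p = 0.721). The call was also lost without any of the 3 Intermediate libraries, with log2 differences of 2.63, 1.92 and 2.23. Mmp8 was not called in the test across all 4 populations.

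**Figure D2:**
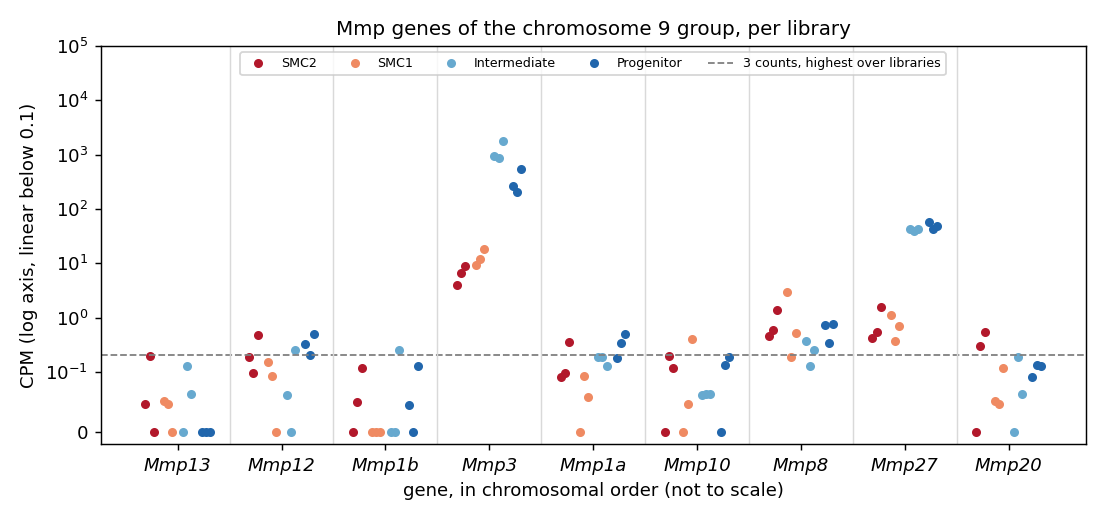
CPM of the 9 Mmp genes of the chromosome 9 row in each library, on a log axis that is linear below 0.1 CPM, in genome order. Points are single libraries coloured by population, and the dashed line marks the highest 3-count floor of any library; Mmp3 and Mmp27 in Intermediate and Progenitor libraries stand above 30 CPM and every other point of the remaining genes is under 3 CPM.

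Promoter stretches of this row are shown because low and expressed genes of the row carry similar letters. RefSeq's promoter table for GRCm38.p6 has windows for 35 of the 50 members, including all 9 genes of the row. The motif TGANTCA, the binding site letters of the AP-1 factors Fos and Jun, reads the same on both strands. It was found in the 250 bases upstream of 7 of the 9 genes, missing from the windows of Mmp8 and Mmp27, and in those of 0 of 26 other members. For Mmp12 it was in 1 of its 2 windows. Over all 32851 windows of that length 6.75% hold it. TATAAA, searched on both strands, is in 12.4% of windows. The 120 bases upstream of the annotated start are printed below from 5′ to 3′, with both motifs in capitals. Mmp3 was expressed in the Intermediate and Progenitor cells, Mmp1a, Mmp10 and Mmp1b had at most 9 counts in any library, and Mmp27 was expressed with neither motif in this stretch.
Mmp3, chr9:7445702-7445821, plus strand: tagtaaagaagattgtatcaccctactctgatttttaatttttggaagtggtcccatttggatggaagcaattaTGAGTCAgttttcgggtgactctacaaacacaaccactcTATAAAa
Mmp1a, chr9:7464021-7464140, plus strand: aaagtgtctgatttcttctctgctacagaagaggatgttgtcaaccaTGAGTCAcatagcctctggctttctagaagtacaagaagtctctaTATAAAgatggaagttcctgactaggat
Mmp10, chr9:7502222-7502341, plus strand: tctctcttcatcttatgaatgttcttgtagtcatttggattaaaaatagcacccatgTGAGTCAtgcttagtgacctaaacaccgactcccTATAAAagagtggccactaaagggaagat
Mmp1b, chr9:7388027-7388146, minus strand: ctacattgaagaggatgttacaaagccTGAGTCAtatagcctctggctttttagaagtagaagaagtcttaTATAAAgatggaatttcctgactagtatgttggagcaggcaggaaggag
Mmp27, chr9:7571276-7571395, plus strand: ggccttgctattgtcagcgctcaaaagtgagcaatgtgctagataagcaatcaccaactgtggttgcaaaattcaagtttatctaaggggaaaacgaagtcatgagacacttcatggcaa
A match is a string of letters and not a measured binding site.

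The other Mmps differed in their pattern. Mmp14 encodes a membrane-bound protease that cleaves collagen and activates the Mmp2 proenzyme (chromosome 14, 54431612 to 54445364). Its level was 99.7, 84.2 and 85.3 CPM in SMC2, 99.7, 67.5 and 95.2 in SMC1, 166, 98.1 and 99.7 in Intermediate, and 236, 215 and 273 in Progenitor. Every Progenitor library was above all others, and the remaining 3 populations overlapped. Intermediate was below Progenitor by a log2 difference of -0.996 ± 0.20 (edgeR adjusted p = 0.00131), and SMC2 and SMC1 by -1.43 ± 0.21 and -1.47 ± 0.21 (edgeR adjusted p = 7.44e-06 and 5.74e-06). Between Intermediate and Progenitor the activator was thus called lower in Intermediate, and Mmp2 itself was not called.

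Mmp17, a protease tied to the membrane by a lipid anchor, was high in the smooth muscle populations (chromosome 5, 129584169 to 129611099). Its level was 125, 104 and 95.9 CPM in SMC2, 283, 187 and 327 in SMC1, 18.1, 14.5 and 14.4 in Intermediate, and 7.34, 10.6 and 10.8 in Progenitor. SMC1 libraries were highest, SMC2 libraries next, and no SMC library overlapped the others. SMC1 exceeded Progenitor by 4.80 ± 0.24 and Intermediate by 4.09 ± 0.23 on the log2 scale (edgeR adjusted p = 1.95e-12 and 1.20e-11), and SMC2 was below SMC1 by a log2 difference of -1.30 ± 0.20 (edgeR adjusted p = 3.23e-05). The endothelial marker sum was also highest in SMC1, and its part in the Mmp17 difference was not tested. Intermediate exceeded Progenitor by 0.72 ± 0.22 (edgeR adjusted p = 0.0216). That call was lost without Intermediate replicate 1 (0.61), Progenitor replicate 1 (0.56) or SMC2 replicate 2 (0.63), and under upper-quartile scaling (0.56).

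Mmp16, a further membrane-bound member, had 2.48, 6.12 and 7.8 CPM in SMC2, 25.3, 34 and 32.9 in SMC1, 52, 47.2 and 53.1 in Intermediate, and 18.6, 14.5 and 16.6 in Progenitor. Intermediate was highest and SMC2 lowest. SMC2 was below SMC1 by a log2 difference of -2.50 ± 0.27 (edgeR adjusted p = 6.90e-07), and Intermediate exceeded Progenitor by 1.61 ± 0.25 (edgeR adjusted p = 1.43e-04). Mmp23, whose propeptide holds it in the membrane until it is cut, had 22, 51.6 and 50.5 CPM in SMC2, 173, 153 and 161 in SMC1, 607, 545 and 457 in Intermediate, and 285, 437 and 376 in Progenitor. It was graded, with SMC2 lowest, SMC1 above it without overlap, and Intermediate and Progenitor higher. All Intermediate libraries were above all Progenitor libraries, but their log2 difference of 0.55 ± 0.25 was not called (edgeR adjusted p = 0.118). The log2 difference between SMC2 and SMC1 was -1.97 ± 0.26 and that between SMC1 and Intermediate -1.73 ± 0.25 (edgeR adjusted p = 4.79e-06 and 1.39e-05). Mmp19, a secreted protease of basement membranes, had 3.96, 6.37 and 7.68 CPM in SMC2, 3.05, 1.77 and 1.52 in SMC1, 75.3, 61.8 and 89.1 in Intermediate, and 115, 81.9 and 148 in Progenitor. Both SMC populations were low, SMC1 the lower, and Intermediate and Progenitor overlapped. The log2 difference between Intermediate and Progenitor was -0.61 ± 0.24 (edgeR adjusted p = 0.0821). It was not called, but 9 of 18 alternatives called it. SMC2 exceeded SMC1 by 1.49 ± 0.31 (edgeR adjusted p = 8.75e-04), the single called Mmp increase in that comparison. Of the exon bases of Mmp19, 28.3% are shared with Gm47093 and Tmem198b, and the libraries do not mark strand, so these reads cannot be told apart.

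The remaining tested Mmps were low. Mmp11, or stromelysin-3, had a mean of 13.5 CPM in SMC2, 13.2 in SMC1, 15.5 in Intermediate and 15.5 in Progenitor, and it was not called in any comparison. Mmp9, or gelatinase B, had 0.736, 2.47 and 1.92 CPM in SMC2, 7.38, 2.24 and 1.93 in SMC1, 1.55, 1.7 and 1.15 in Intermediate, and 7.88, 3.2 and 4.99 in Progenitor. Its highest libraries were Progenitor replicate 1 and SMC1 replicate 1, where the neutrophil markers summed to 5.88 and 50.7 CPM. Progenitor replicates 2 and 3 had neutrophil sums of 3.53 and 7.20 CPM, so Progenitor replicate 1 did not stand out in these markers. The part of those markers in Mmp9 was not tested. All Progenitor libraries were above all SMC2 and Intermediate libraries, and SMC1 overlapped SMC2 and Progenitor but not Intermediate. SMC2 was below Progenitor by a log2 difference of -1.66 ± 0.50 and Intermediate by -1.87 ± 0.52 (edgeR adjusted p = 0.0118 and 0.0148). The SMC2 call was lost without Progenitor replicate 1 (-1.27), and the Intermediate call without Progenitor replicate 1 (-1.46), Intermediate replicate 1 (-1.91) or Intermediate replicate 3 (-1.71). The difference of 1.39 ± 0.52 between SMC1 and Intermediate (edgeR adjusted p = 0.0398) was 0.52 ± 0.46 without SMC1 replicate 1 (edgeR adjusted p = 0.429). That call was also lost without each Intermediate library in turn (1.24 to 1.51), without Progenitor replicate 3 (1.39), with the replicate number as a block (1.27) and under upper-quartile scaling (1.36). Mmp15, a membrane-bound member, was higher in SMC1 than in Progenitor, at 3.41, 2.61 and 3.34 against 0.228, 0.733 and 1.2 CPM, with a log2 difference of 2.15 ± 0.45 (edgeR adjusted p = 4.63e-04). Mmp21, Mmp24 and Mmp28 stayed under 3 CPM in all 12 libraries and were not called in the test across the 4 populations. Between SMC1 and Progenitor they were called, with log2 differences of -1.68 ± 0.65 for Mmp21, -2.99 ± 1.02 for Mmp24 and 1.34 ± 0.46 for Mmp28 (edgeR adjusted p = 0.0378, 0.0202 and 0.0203). Each of these calls was lost without some single libraries. For Mmp21 these were SMC1 replicates 1 (-1.26) and 2 (-1.88), Progenitor replicates 1 (-1.77) and 2 (-1.31) and Intermediate replicate 2 (-1.67). For Mmp24 they were SMC1 replicates 1 (-2.89) and 2 (-2.82) and Progenitor replicate 3 (-2.79), and for Mmp28 SMC1 replicate 1 (1.14) and Progenitor replicates 1 and 2 (1.261 each), besides upper-quartile scaling (1.16). The 7 untested members, Mmp1a, Mmp1b, Mmp10, Mmp12, Mmp13, Mmp20 and Mmp25, had at most 9 counts in any library.

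Among the Adamts genes, the proteoglycan-cleaving members were spread over all populations, each with its own order. Adamts1, a secreted protease of versican and aggrecan, was the most abundant member per kilobase in the SMC populations (chromosome 16, 85793827 to 85803113, minus strand). It averaged 647 ± 126 CPM per kilobase in SMC2, 406 ± 53.8 in SMC1, 208 ± 24.9 in Intermediate and 179.8 ± 41.1 in Progenitor (SD, n = 3 each). Library by library its level was 4122, 3383 and 2793 CPM in SMC2, 1913, 2082 and 2470.1 in SMC1, 1227, 964 and 1116 in Intermediate, and 859, 799 and 1203 in Progenitor. The 6 SMC libraries lay above the other 6, and the Intermediate and Progenitor libraries overlapped. SMC2 exceeded Progenitor by 1.85 ± 0.22 and SMC1 exceeded it by 1.18 ± 0.21 on the log2 scale (edgeR adjusted p = 4.49e-07 and 1.12e-04). The difference of 0.67 ± 0.21 between SMC2 and SMC1 (edgeR adjusted p = 0.0174) was smaller. It was not called without SMC2 replicate 1 (0.50, edgeR adjusted p = 0.0906), SMC1 replicate 1 (0.59, 0.0836) or SMC1 replicate 2 (0.63, 0.0625).

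The promoter of Adamts1 is printed because the gene leads both SMC populations and is one of the members outside the Mmp row with a TATAAA string, here in capitals and starting 32 bases upstream of the annotated start (RefSeq, GRCm38.p6).
Adamts1, chr16:85803114-85803233, minus strand: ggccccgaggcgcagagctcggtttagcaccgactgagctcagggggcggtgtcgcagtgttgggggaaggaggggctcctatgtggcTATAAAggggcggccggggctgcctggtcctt
The string is a description of the sequence, and TATAAA occurs in 12.4% of all windows.

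Adamts5, the main aggrecan-cleaving enzyme of mouse cartilage, is the neighbour of Adamts1, 53059 bases away on the same strand of chromosome 16 (chromosome 16, 85856173 to 85901828). Its level was 118, 91.1 and 69.1 CPM in SMC2, 20.7, 14.2 and 17.6 in SMC1, 109, 121 and 102 in Intermediate, and 114, 182 and 153 in Progenitor. The neighbours thus had different orders, since SMC1 had the least Adamts5 and the second most Adamts1. SMC2 exceeded SMC1 by 2.41 ± 0.22 and SMC1 was below Progenitor by a log2 difference of -3.10 ± 0.22 (edgeR adjusted p = 3.26e-08 and 3.42e-10). Intermediate and Progenitor did not differ beyond the threshold, at -0.44 ± 0.20 (edgeR adjusted p = 0.131). In 4 of 18 alternatives the call was made, among them upper-quartile scaling at -0.60. Between SMC2 and SMC1 the adipocyte and Schwann cell sums were also higher in SMC2, and their part in Adamts5 was not tested.

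Adamts4, another aggrecan-cleaving protease, separated the SMC populations the most of all Adamts proteases (chromosome 1, 171250421 to 171260637). Its level was 505, 376 and 365 CPM in SMC2, 15.8, 16.9 and 13.9 in SMC1, 33.2, 31.6 and 45.5 in Intermediate, and 78.3, 82.3 and 112 in Progenitor. Every SMC2 library was above 360 CPM, the Progenitor libraries came next, then Intermediate, and SMC1 was lowest, with no overlap between any pair of populations. SMC2 exceeded SMC1 by 4.74 ± 0.22 (edgeR adjusted p = 4.15e-12) and Progenitor by 2.19 ± 0.20 (edgeR adjusted p = 9.19e-09). The adipocyte sum was likewise high in SMC2, lower in Progenitor and lowest in SMC1 and Intermediate, and its part in Adamts4 was not tested.

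Adamts9, a versican-cleaving protease with a long tail of thrombospondin repeats, was raised in SMC2 (chromosome 6, 92772699 to 92943492). Its level was 152, 118 and 91.4 CPM in SMC2, 22.9, 23.9 and 23 in SMC1, 14.9, 21.7 and 30.1 in Intermediate, and 14.6, 22.9 and 18.1 in Progenitor. All SMC2 libraries were above all others, and the other populations overlapped. SMC2 exceeded SMC1 by 2.37 ± 0.24, Intermediate by 2.44 ± 0.24 and Progenitor by 2.71 ± 0.24 (edgeR adjusted p = 1.67e-07, 4.50e-08 and 1.23e-08). The adipocyte sum was above all others in SMC2 too, and its part was not tested. Reads in 12% of its exon bases could belong to overlapping annotated genes.

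Adamts8 and Adamts15 are neighbours on chromosome 9, 20109 bases apart and on opposite strands. Adamts8, a protease of aggrecan, had 25.6, 27.1 and 22 CPM in SMC2, 69.7, 60.4 and 83.4 in SMC1, 19.2, 14.6 and 11.9 in Intermediate, and 1.23, 3.07 and 3.35 in Progenitor. SMC1 was highest, SMC2 next and Progenitor lowest, without overlap between any pair of populations. SMC1 exceeded Progenitor by 4.84 ± 0.29 and SMC2 was below SMC1 by a log2 difference of -1.51 ± 0.23 (edgeR adjusted p = 3.88e-11 and 3.86e-05). Overlap with Gm29724 covers 10.6% of its exon bases. Adamts15, which cleaves versican and aggrecan, had 96.3, 75.8 and 62.5 CPM in SMC2, 81, 72.4 and 106 in SMC1, 104, 119 and 108 in Intermediate, and 49.9, 48.1 and 92.3 in Progenitor. All Intermediate libraries were above all SMC2 and Progenitor libraries, and the other pairs of populations overlapped. Intermediate exceeded Progenitor with a log2 difference of 0.80 ± 0.23 (edgeR adjusted p = 0.0162), the single called difference of this gene. The call was lost without Intermediate replicate 2 (0.75), Progenitor replicate 1 (0.67) or Progenitor replicate 2 (0.65). Adamts20, another versican-cleaving protease, was low, at 2.67, 2.52 and 5.94 CPM in SMC2, 0.458, 0.653 and 1.46 in SMC1, 4.91, 5.97 and 7.92 in Intermediate and 1.05, 1.27 and 3.16 in Progenitor, with the highest mean in Intermediate.

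The procollagen-trimming members were led by Adamts2, which removes the amino-terminal propeptide of fibrillar collagens (chromosome 11, 50602084 to 50807573). Its level was 84.4, 105 and 96.4 CPM in SMC2, 229.5, 153 and 225 in SMC1, 2925, 2962 and 2547 in Intermediate, and 738, 1079 and 1334 in Progenitor. Intermediate libraries were all above Progenitor libraries, these above SMC1, and these above SMC2. Intermediate exceeded Progenitor by 1.42 ± 0.22, SMC1 was below Intermediate by a log2 difference of -3.80 ± 0.24 and SMC2 was below SMC1 by -1.09 ± 0.22 (edgeR adjusted p = 8.94e-05, 7.63e-11 and 5.57e-04). The mesothelial sum was highest in Intermediate as well, and without Intermediate replicate 3, where that sum was largest, the difference from Progenitor was 1.51 ± 0.24. The remaining Intermediate libraries still had sums of 178 and 167 CPM, beside 25.7 to 44.9 CPM in Progenitor. The part of the mesothelial markers in Adamts2 was not tested. Adamts14, a close relative with the same activity, was ordered otherwise, at 26, 17.6 and 17.9 CPM in SMC2, 7.94, 8.63 and 8.14 in SMC1, 4.23, 3.89 and 3.83 in Intermediate, and 13.4, 11.5 and 17.9 in Progenitor. SMC2 had the highest mean but overlapped Progenitor, and Intermediate was lowest without overlap. Intermediate was below Progenitor by a log2 difference of -1.84 ± 0.22 and SMC2 above SMC1 by 1.32 ± 0.20 (edgeR adjusted p = 3.99e-06 and 3.11e-05). The difference of 0.52 ± 0.20 between SMC2 and Progenitor (edgeR adjusted p = 0.0373) was not stable, since 12 of 18 alternatives lost it and leaving out SMC2 replicate 1 gave 0.23. Adamts3, the third procollagen-trimming protease, had at most 7.28 CPM and was highest in Intermediate. Its difference between Intermediate and Progenitor was 0.91 ± 0.40 (edgeR adjusted p = 0.11), and with the replicate number as a block it was called at 0.95 (edgeR adjusted p = 0.0492).

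Adamts7 and Adamts12 both cleave the cartilage matrix protein Comp. Adamts12 had 8.7, 10.03 and 6.72 CPM in SMC2, 4.07, 3.96 and 4.69 in SMC1, 20.3, 23.8 and 23.2 in Intermediate, and 63.1, 67 and 80.7 in Progenitor. Progenitor was highest, and no populations overlapped. Intermediate was below Progenitor by a log2 difference of -1.65 ± 0.17, and SMC2 was above SMC1 by 1.01 ± 0.19 (edgeR adjusted p = 8.38e-07 and 2.48e-04). Adamts7 had 2.48, 1.63 and 3.12 CPM in SMC2, 0.458, 1.77 and 1.05 in SMC1, 12.7, 13.4 and 12.6 in Intermediate, and 4.65, 5.47 and 8.02 in Progenitor. Here Intermediate was highest, and the SMC populations overlapped each other. SMC1 was below Intermediate by a log2 difference of -3.54 ± 0.37 and SMC2 by -2.43 ± 0.34 (edgeR adjusted p = 9.48e-08 and 4.58e-06).

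Adamts10 and Adamts6 are a related pair, and Adamts10 binds fibrillin. Adamts10 had 24.9, 37.2 and 33.8 CPM in SMC2, 175, 261 and 173 in SMC1, 251, 463 and 325 in Intermediate, and 84.6, 119 and 102 in Progenitor. SMC2 was lowest and Intermediate highest on average. SMC2 was below SMC1 by a log2 difference of -2.67 ± 0.24, and Intermediate exceeded Progenitor by 1.77 ± 0.23 (edgeR adjusted p = 5.29e-08 and 1.80e-05). Adamts6 had 2.48, 4.05 and 3.36 CPM in SMC2, 11.9, 20.2 and 14.5 in SMC1, 14.4, 21.8 and 24.6 in Intermediate, and 6.47, 6.6 and 7.52 in Progenitor. It gave the same order of means as Adamts10, with a log2 difference of -2.24 ± 0.25 between SMC2 and SMC1 and of 1.56 ± 0.24 between Intermediate and Progenitor (edgeR adjusted p = 6.03e-07 and 8.16e-05).

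The other Adamts genes were low. Adamts17 was highest in Intermediate, with 5.65, 6.28 and 6.9 CPM beside at most 1.7 CPM elsewhere. Adamts16 and Adamts19 were highest in Progenitor, with 3.42, 1.93 and 1.89 CPM and 1.96, 3.07 and 3.98 CPM there. Adamts13, the von Willebrand factor protease, stayed under 1 CPM in all 12 libraries, although it lies 69750 bases from Adamtsl2, which reached 484 CPM in Intermediate. Adamts18 had at most 1.74 CPM and was the 1 Adamts gene not called in the test across the 4 populations (edgeR adjusted p = 0.576).

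The Adamtsl genes gave some of the steepest differences. Adamtsl2, a microfibril-binding protein that acts on growth factor storage in the matrix, marked the Intermediate cells (chromosome 2, 27079379 to 27108981). Its level was 2.95, 4.94 and 8.64 CPM in SMC2, 7.28, 6.2 and 5.39 in SMC1, 472, 484 and 376 in Intermediate, and 32.9, 62.8 and 54.1 in Progenitor. Intermediate exceeded Progenitor by 3.15 ± 0.30 (edgeR adjusted p = 9.58e-07), and SMC2 was below Intermediate by a log2 difference of -6.35 ± 0.35 (edgeR adjusted p = 8.22e-11). No Intermediate library overlapped a Progenitor library. The SMC populations did not differ beyond the threshold, at -0.21 ± 0.31 (edgeR adjusted p = 0.635). Intermediate replicate 3, with the largest mesothelial sum, had the least Adamtsl2 of the 3, and the part of the mesothelial markers in Adamtsl2 was not tested.

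Adamtsl1, a secreted protein whose partners are less known, had the most positive log2 difference of any member between SMC2 and SMC1 (chromosome 4, 85514172 to 86428385). Its level was 289, 175 and 162 CPM in SMC2, 9.77, 6.39 and 6.21 in SMC1, 54.7, 63.5 and 63 in Intermediate, and 71.2, 81.5 and 87.9 in Progenitor. SMC2 was highest and SMC1 lowest, with Intermediate and Progenitor between them and close together. SMC2 exceeded SMC1 by 4.81 ± 0.25 and Progenitor by 1.38 ± 0.21 (edgeR adjusted p = 1.73e-11 and 1.50e-05). SMC2 libraries also had the highest adipocyte and Schwann cell sums, and their part was not tested.

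Adamtsl3 had 2.44, 5.28 and 5.94 CPM in SMC2, 33.9, 38.1 and 49.1 in SMC1, 124, 148 and 148 in Intermediate, and 143, 143 and 208 in Progenitor. SMC2 was lowest, SMC1 above it without overlap, and Intermediate and Progenitor were highest and overlapped. SMC2 was below SMC1 by a log2 difference of -3.16 ± 0.26 and SMC1 below Intermediate by -1.79 ± 0.24 (edgeR adjusted p = 1.90e-08 and 3.86e-06). Adamtsl4, which binds fibrillin and is needed for the fibres that hold the lens in the human eye, had 16.2, 13.5 and 12.1 CPM in SMC2, 49.3, 41.6 and 58.6 in SMC1, 83, 67.1 and 57.7 in Intermediate, and 49.8, 98.3 and 84.1 in Progenitor. It was lower in SMC2 than in SMC1 by a log2 difference of -1.84 ± 0.23 (edgeR adjusted p = 2.44e-06), and the other 3 populations overlapped. Adamtsl5, a small microfibril-binding member, had 54.4, 58.7 and 59.3 CPM in SMC2, 179, 157 and 205 in SMC1, 200.0, 175 and 131 in Intermediate, and 58.3, 81 and 66.9 in Progenitor. SMC1 and Intermediate were high and overlapped, and SMC2 and Progenitor were low and overlapped. SMC2 was below SMC1 by a log2 difference of -1.65 ± 0.18 and Intermediate above Progenitor by 1.30 ± 0.18 (edgeR adjusted p = 4.66e-07 and 2.75e-05).

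The 4 Timps divided between the cell populations. Timp2, which blocks Mmps and also helps to activate Mmp2, was the most abundant member per kilobase in Intermediate and Progenitor (chromosome 11, 118301069 to 118355740, minus strand). Its level was 571, 616 and 547 CPM in SMC2, 1320.3, 1009.6 and 1593 in SMC1, 6547, 4421 and 4295 in Intermediate, and 3814, 4272 and 4618 in Progenitor. SMC2 libraries were lowest, SMC1 libraries next, and all Intermediate and Progenitor libraries were higher. SMC2 was below SMC1 by a log2 difference of -1.18 ± 0.22 and SMC1 below Progenitor by -1.70 ± 0.22 (edgeR adjusted p = 2.13e-04 and 1.86e-06). Intermediate and Progenitor overlapped, at 0.26 ± 0.21 (edgeR adjusted p = 0.407).

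Timp1, an inducible inhibitor of most secreted Mmps, lies in an intron of Syn1 on the other strand (chromosome X, 20870166 to 20874735). Its level was 2.67, 5.78 and 8.94 CPM in SMC2, 17.7, 9.05 and 11.8 in SMC1, 152, 118 and 119 in Intermediate, and 100.1, 108 and 97.1 in Progenitor. It was high in Intermediate and Progenitor and low in both SMC populations. Every Intermediate library was above every Progenitor library, but their log2 difference of 0.35 ± 0.28 was not called (edgeR adjusted p = 0.404). SMC1 was below Intermediate by a log2 difference of -3.34 ± 0.31 and SMC2 by -4.50 ± 0.34 (edgeR adjusted p = 1.89e-07 and 7.90e-09). The lower level in SMC2 than in SMC1, -1.17 ± 0.32 (edgeR adjusted p = 0.00877), was not called in a fit of those 2 populations alone (adjusted p = 0.0890).

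Timp3, which stays bound to the matrix and inhibits Adamts4 and Adamts5 as well as Mmps, lies within Syn3 on the other strand (chromosome 10, 86300372 to 86349506). Its level was 1978, 1898 and 1524 CPM in SMC2, 1393, 1273 and 1783 in SMC1, 2923, 1759 and 1728 in Intermediate, and 718, 511 and 742 in Progenitor. Progenitor was lowest without overlap, and the other 3 populations overlapped. Intermediate exceeded Progenitor by 1.70 ± 0.24 and SMC2 exceeded it by 1.45 ± 0.23 (edgeR adjusted p = 2.46e-05 and 2.79e-05). Syn3 exons share 21.3% of the Timp3 exon bases, so those reads cannot be assigned to either gene without strand.

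Timp4 was high in the smooth muscle populations, above all in SMC2 (chromosome 6, 115241892 to 115252205, minus strand). Timp4 inhibits Mmps and has been described mostly in the heart, vessels and fat. Its level was 379, 305 and 260.3 CPM in SMC2, 111, 86.3 and 86.2 in SMC1, 5.72, 4.21 and 5.11 in Intermediate, and 2.6, 4.67 and 6 in Progenitor. The SMC2 libraries were all above the SMC1 libraries, and both were well above the rest, which overlapped. SMC2 exceeded SMC1 by 1.73 ± 0.22, Intermediate by 5.97 ± 0.27 and Progenitor by 6.17 ± 0.28 on the log2 scale (edgeR adjusted p = 2.97e-06, 7.27e-13 and 5.73e-13). SMC1 exceeded Progenitor by 4.44 ± 0.26 (edgeR adjusted p = 2.30e-11). The adipocyte sum was 543 to 653 CPM in SMC2, 7.88 to 17.6 in SMC1 and 22.1 to 48.6 in Progenitor. Its part in these Timp4 differences was not tested. The stretch upstream of Timp4 is printed as the counterpart of Adamts1, since both genes were high in all SMC libraries, and it holds neither TGANTCA nor TATAAA (RefSeq, GRCm38.p6).
Timp4, chr6:115252206-115252325, minus strand: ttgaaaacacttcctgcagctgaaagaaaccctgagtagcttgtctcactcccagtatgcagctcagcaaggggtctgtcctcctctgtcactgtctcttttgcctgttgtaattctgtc
Absence of these letters from 120 bases says nothing about any factor.

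**Figure D3:**
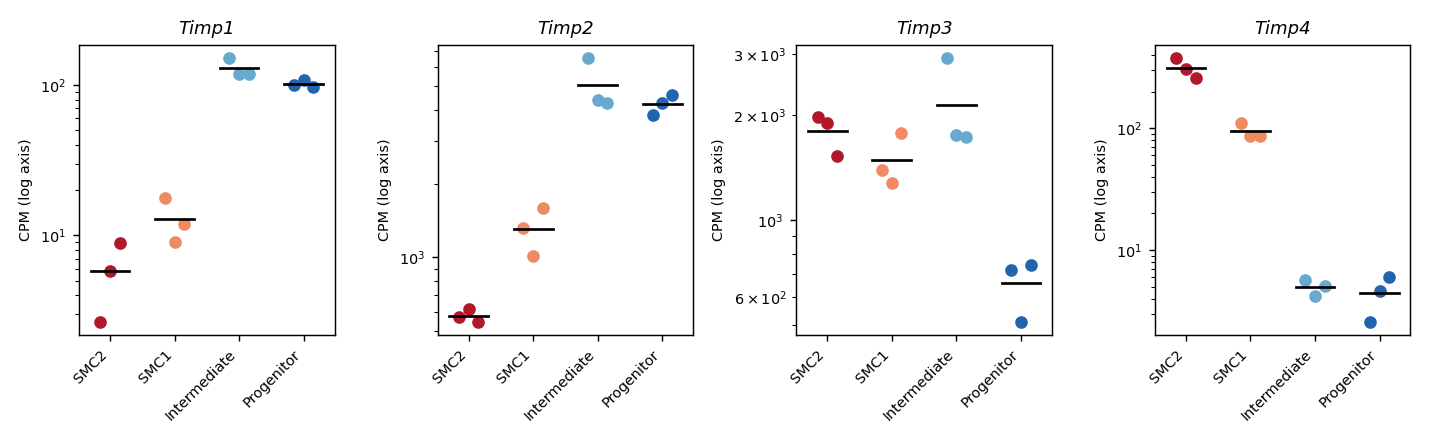
CPM of the 4 Timp genes in each library, on log axes, 1 panel per gene with populations in the order SMC2, SMC1, Intermediate and Progenitor. Points are libraries and horizontal lines are means; Timp4 is highest in SMC2 and SMC1, Timp1 and Timp2 in Intermediate and Progenitor, and Timp3 is lowest in Progenitor.

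Summed per family, the proteases and inhibitors shifted in make-up between the populations. Mmp levels summed to 77.1 ± 11.3 CPM per kilobase in SMC2, 184 ± 30.9 in SMC1, 1626 ± 250.0 in Intermediate and 1084 ± 179.5 in Progenitor (SD, n = 3 each). Adamts levels summed to 784 ± 146 in SMC2, 488 ± 56.5 in SMC1, 595 ± 24.6 in Intermediate and 358 ± 78.1 in Progenitor on the same scale. Adamtsl sums were 33.1 ± 4.87, 56.6 ± 7.79, 131 ± 15.7 and 66.8 ± 12.5, and Timp sums were 429 ± 41.3, 548 ± 108, 1715 ± 430.0 and 1283 ± 103 CPM per kilobase in the same order. Thus the Mmp sum was highest in Intermediate and lowest in SMC2 without overlap of those libraries, whereas the Adamts sum was higher in every SMC2 library than in any other library. The ratio of summed Timp to summed Mmp RNA was 7.04, 5.67 and 4.38 in SMC2, 2.73, 2.97 and 3.23 in SMC1, 1.24, 1.11 and 0.821 in Intermediate and 1.16, 1.35 and 1.08 in Progenitor. It was above 4 in all SMC2 libraries and below 1.4 in all Intermediate and Progenitor libraries, which overlapped. With the Adamts sum added to the denominator the order turned. Summed Timp over summed Mmp and Adamts was 0.455, 0.531 and 0.52 in SMC2, 0.856, 0.709 and 0.871 in SMC1, 0.924, 0.766 and 0.621 in Intermediate and 0.8999, 0.9997 and 0.8001 in Progenitor, so that SMC2 was lowest without overlap and the other 3 populations overlapped. These are ratios of RNA, and protein was not measured.

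**Figure D4:**
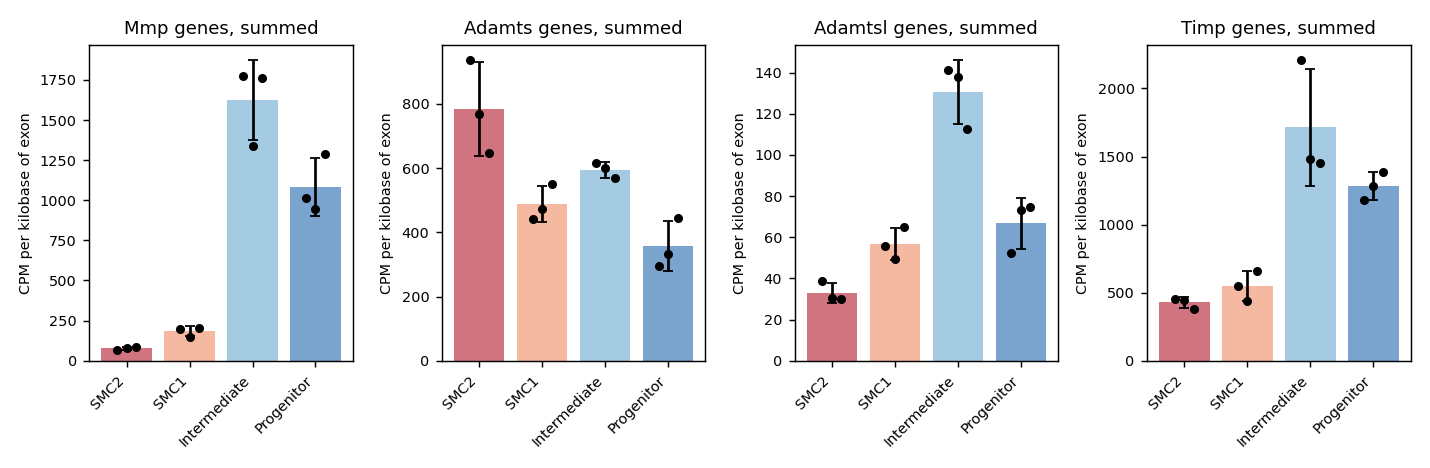
Summed level of each family in CPM per kilobase of exon, 1 panel per family, with populations in the order SMC2, SMC1, Intermediate and Progenitor. Points are libraries, bars are means from 0 and whiskers are SD; the Mmp and Timp sums are highest in Intermediate and Progenitor and the Adamts sum in SMC2.

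A few genes carried these sums. Adamts1 gave 82.5 ± 0.927% of the Adamts sum in SMC2, 83.3 ± 1.35% in SMC1, 35 ± 4.04% in Intermediate and 50.3 ± 4.79% in Progenitor (SD, n = 3 each). Adamts2 gave 1.34 ± 0.332%, 4.48 ± 1.06%, 50.6 ± 2.44% and 31.2 ± 4.06% in that order. The Adamts load of the SMC populations was therefore mostly Adamts1, and Intermediate had Adamts2 in first place. Among the Timps, Timp3 gave 51.4 ± 2.13% of the sum in SMC2, 33.4 ± 2.16% in SMC1, 15.1 ± 0.95% in Intermediate and 6.31 ± 1.31% in Progenitor. Timp2 gave 34.7 ± 2.39%, 61 ± 1.87%, 76.1 ± 0.238% and 84.7 ± 1.5%, and Timp4 12.4 ± 1.46%, 3 ± 0.669%, 0.0506 ± 0.00826% and 0.0575 ± 0.0184%. Timp3 led in SMC2 and Timp2 in the other 3 populations.

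The 2 smooth muscle populations differed in many members and in both directions. In the comparison of SMC2 with SMC1, 13 of 43 members were higher in SMC2 and 14 lower, which is 30.2% and 32.6% beside 16.5% and 18.1% of all genes tested. The median absolute log2 difference of the members was 1.27, and that of all genes 0.54. By family, 10 Adamts genes were higher and 5 lower of 19, 1 Mmp was higher and 4 lower of 15, 1 Adamtsl was higher and 3 lower of 5, and 1 Timp was higher and 2 lower of 4. Some of these calls were not stable. Those of Adamts1 and Adamts17 were each lost in 3 of 18 alternatives, those of Adamts3 and Adamts7 in 4 each, and that of Timp1 in 1. The members higher in SMC2 by more than 2 on the log2 scale were Adamtsl1, Adamts4, Adamts5, Adamts9, Adamts16 and Adamts20. The last 2 rest on few reads. Adamts16 had 9, 23 and 16 counts in SMC2 against 2, 3 and 4 in SMC1, and Adamts20 58, 51 and 99 against 9, 14 and 25. Those lower by more than 2 were Adamtsl3, Adamts10, Mmp16 and Adamts6.

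**Figure D5:**
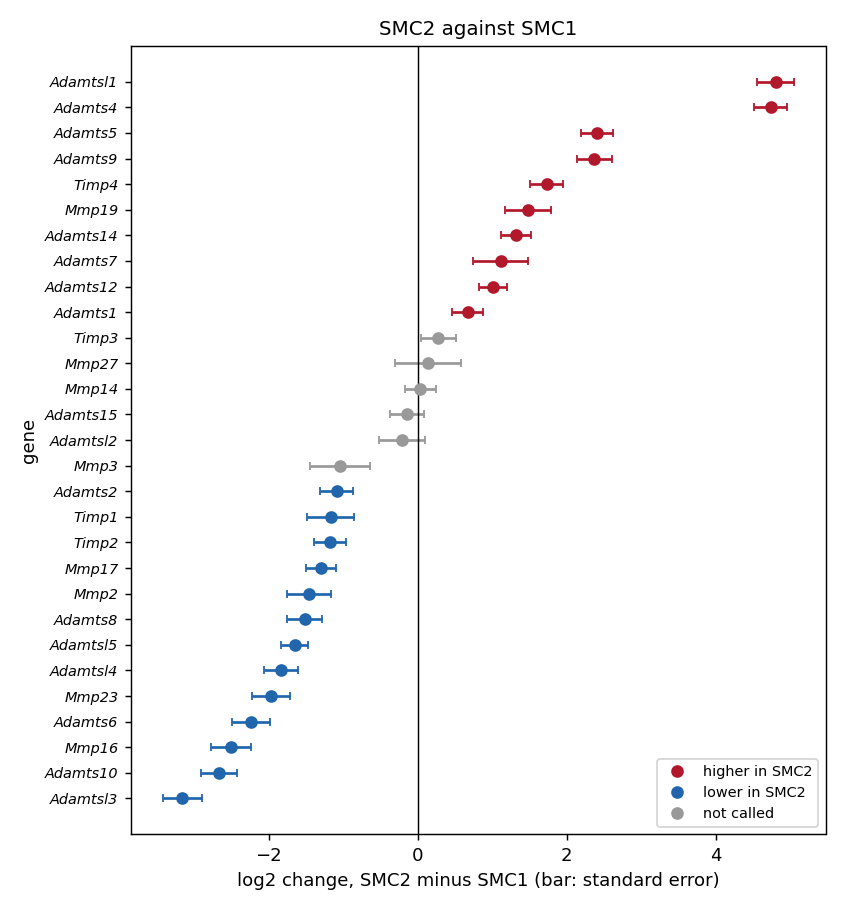
Log2 difference SMC2 minus SMC1 for the 29 members described one by one, with bars of 1 SE derived from edgeR's F statistic, sorted by value. Points right of 0 are higher in SMC2 and points left of 0 lower; Adamtsl1 and Adamts4 lie near 5 and Adamtsl3 near -3.

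Against the perivascular populations, the smooth muscle cells had more lower than higher members. Between SMC2 and Progenitor, 10 members were higher and 22 lower of 43, beside 23.1% and 21.7% of all genes. Between SMC1 and Progenitor, 11 were higher and 23 lower, beside 25.3% and 23.1%. Between SMC2 and Intermediate, 9 were higher and 19 lower, beside 21.4% and 23.2%, and between SMC1 and Intermediate 7 were higher and 21 lower, beside 19.7% and 21.9%. These 4 comparisons share libraries and are not independent of each other. The median log2 difference of the members was -1.05, -1.09, -0.50 and -1.21 in that order, and all genes had medians between -0.00491 and 0.0575. Under upper-quartile scaling the last comparison had 5 higher and 23 lower members.

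Between Intermediate and Progenitor, 14 members were higher in Intermediate and 8 lower, beside 12.7% and 9.46% of all genes. Upper-quartile scaling, which moved the median of all genes by -0.16, gave 12 higher and 11 lower. The higher members included Adamtsl2 (3.15), Adamts8 (2.62), Mmp3 (1.81), Adamts10 (1.77), Timp3 (1.70) and Adamts2 (1.42), all as log2 differences. The lower ones included Adamts14 (-1.84), Adamts12 (-1.65), Adamts4 (-1.31) and Mmp14 (-0.996). Leaving out 1 library at a time gave 17 to 25 called members, against 22 with all libraries.

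Substrates and partners of these proteases were listed as well. Of 15 substrate genes, 1 was higher and 9 lower in SMC2 than in SMC1, beside 16.5% higher and 18.1% lower of all genes tested. The increase was Thbs1, an adhesive glycoprotein of the matrix, at 764, 628 and 575 CPM in SMC2 against 115, 80.1 and 112 in SMC1, a log2 difference of 2.68 ± 0.32 (edgeR adjusted p = 5.47e-06). Versican, a substrate of Adamts1, Adamts4, Adamts5 and Adamts9, was lower, with Vcan at 17.1, 47.6 and 43.9 CPM in SMC2 against 155, 205 and 187 in SMC1 and a log2 difference of -2.33 ± 0.27 (edgeR adjusted p = 2.30e-06). Elastin was lower in the same comparison, at 529 ± 188 CPM in SMC2 and 4651 ± 825 CPM in SMC1 (SD, n = 3 each), a log2 difference of -3.14. Of the 7 proteoglycan-cleaving Adamts genes, Adamts1, Adamts4, Adamts5, Adamts9 and Adamts20 were called higher in SMC2 than in SMC1, the call for Adamts1 depending on single libraries. Adamts8 was lower (-1.51), and Adamts15 was not called (-0.15). Of 9 microfibril genes that Adamtsl and Adamts proteins bind or resemble, 7 were lower in SMC2 than in SMC1, among them Fbn1, the main fibrillin, at -3.11 ± 0.27, and 1, Fbn2, was higher. Between Intermediate and Progenitor, 5 of the 9 were higher in Intermediate and 0 lower, beside 12.7% and 9.46% of all genes, led by Ltbp2 at 3.63 ± 0.24 and by Thsd4, another Adamts-like protein, at 1.47 ± 0.27. Of the substrates, 4 were higher and 1 lower in Intermediate. All these calls are edgeR calls at the same threshold.

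Other regulators and matrix proteases were counted in the same way. Of 11 other inhibitors and clearance genes, 0 were higher and 5 lower in SMC2 than in SMC1 by edgeR, and the shares of all genes were again 16.5% and 18.1%. Among them was Reck, a membrane-anchored Mmp inhibitor, at 63.8, 60.9 and 56.6 CPM in SMC2 against 137, 126 and 183 in SMC1 (-1.30 ± 0.19), and Lrp1, the receptor that clears Timp3 and several proteases, at 116 ± 18.8 and 516 ± 161 CPM (SD, n = 3 each; -2.15 ± 0.27). Serpine2, an inhibitor of plasmin and thrombin, averaged 802 ± 133 CPM in SMC2, 1924 ± 226 in SMC1, 143 ± 68 in Intermediate and 438 ± 110.0 in Progenitor, the high side being SMC1. Of 8 activators, Plat, Plau and Pcsk6 were higher in Progenitor than in each other population. Pcsk6, a proprotein convertase, averaged 10.3 ± 4.43, 10.5 ± 3.11, 121 ± 14.8 and 388 ± 61.3 CPM in SMC2, SMC1, Intermediate and Progenitor. Of 18 other matrix proteases, 0 were higher and 5 lower in Intermediate than in Progenitor, beside 12.7% and 9.46% of all genes, including Fap, a fibroblast surface protease (-1.34 ± 0.19), and Adam12, a membrane protease of the Adam family (-4.64 ± 0.47). Of those 18, 1 was higher and 7 lower in SMC2 than in SMC1, and of the 8 activators 2 were higher and 4 lower. Between Intermediate and Progenitor, 0 activators were higher and 3 lower, and 3 of the other inhibitors were higher and 3 lower.

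Against Progenitor, 23.1% of all genes were higher and 21.7% lower in SMC2, and 25.3% higher and 23.1% lower in SMC1, and the lists are given beside these shares. Of the 18 other matrix proteases, 0 were higher and 13 lower in SMC2 than in Progenitor, and 2 were higher and 9 lower in SMC1 than in Progenitor by edgeR. Ctsk, or cathepsin K, which degrades collagen, averaged 18 ± 3.69 CPM in SMC2, 24.6 ± 4.09 in SMC1, 625 ± 115 in Intermediate and 481 ± 66.7 in Progenitor (SD, n = 3 each). Of the 11 other inhibitors, 1 was higher and 6 lower in SMC2 and 2 were higher and 7 lower in SMC1, and of the 8 activators 1 was higher and 6 lower in SMC2 and 1 was higher and 5 lower in SMC1. Of the 15 substrates, 3 were higher and 9 lower in SMC2 and 3 higher and 5 lower in SMC1. Eln was among those higher in both, by 1.14 ± 0.30 in SMC2 and 4.28 ± 0.33 in SMC1 on the log2 scale. Of the 9 microfibril genes, 1 was higher and 5 lower in SMC2 and 4 were higher and 4 lower in SMC1. Thsd4 was higher in both, by 4.81 ± 0.30 in SMC2 and 6.19 ± 0.32 in SMC1.

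Against Intermediate, 21.4% of all genes were higher and 23.2% lower in SMC2, and 19.7% higher and 21.9% lower in SMC1. Other matrix proteases had 1 higher and 11 lower in SMC2, and 2 higher and 6 lower in SMC1. Other inhibitors had 1 higher and 5 lower in SMC2, and 2 higher and 5 lower in SMC1, and activators had 2 higher and 5 lower in SMC2, and 2 higher and 4 lower in SMC1. Substrates had 2 higher and 10 lower in SMC2, and 4 higher and 5 lower in SMC1. Acan, or aggrecan, was among the higher ones, at 8.15, 4.84 and 4.14 CPM in SMC2, 9.57, 3.36 and 8.43 in SMC1 and 0.311, 0.0628 and 0.192 in Intermediate. Microfibril genes had 1 higher and 7 lower in SMC2, and 2 higher and 3 lower in SMC1.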

How the data were processed

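Libraries of 12 sorted samples were made with a SMART-Seq kit for low input, which copies full-length cDNA of poly(A) RNA and does not mark strand, per the labels' protocols. The authors deposited raw counts per gene and library, and these counts were used here without change. Per the submitters' processing notes the build was mm10 and the tools included STAR 2.5.2a and DESeq2 1.26.0, and the tool that counted reads is not given in the sources used here. The authors' normalized and regularized tables were not used.

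Counts were fitted with edgeR 4.0.16 (limma 3.58.1, R 4.3.3) after filterByExpr, which kept 19016 of 33352 genes, with TMM factors and robust quasi-likelihood dispersions, in 1 model of all 12 libraries (8 residual degrees of freedom, common biological coefficient of variation 0.206). The 6 pairwise comparisons and the test of any difference were adjusted by Benjamini-Hochberg over all genes tested, each on its own, at 0.05. The script was tested on simulated data. Levels per kilobase used merged exon lengths of GENCODE M21 (GRCm38, the same build as mm10), from which positions also come. Promoter windows came from RefSeq (GRCm38.p6) and figures from matplotlib 3.10.9 in Python 3.11.15. Members described one by one had a call in the test of any difference and a mean of at least 10 CPM in their highest population. The members and gene lists were chosen with earlier results of these data known. Total counts of 13258631 to 22647175 per library put a floor of 3 counts at 0.137 to 0.200 CPM, which covers counting error only. No pair of libraries agreed within sampling noise.

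Alternatives were other scaling factors, no filter, DESeq2 1.42.0, the replicate block, a fit of the compared populations alone, and leaving out each library. The replicate numbers were taken to pair libraries between Intermediate and Progenitor, where same-numbered libraries deviated together with correlations of 0.171, 0.191 and 0.170 over genes. In the other comparisons the lowest correlation was between -0.0177 and 0.0786, so the numbers were not taken to pair those libraries. Single correlations there were higher, at 0.267 for SMC1 minus Progenitor and 0.233 and 0.346 for SMC2 minus Intermediate. Pairing in those comparisons is therefore not settled. The main results for Intermediate against Progenitor come from the model without pairs, and the replicate block was an alternative.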

Additional observations from a re-analysis of the deposited data

How the results depend on the processing

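All 125 alternative counts of called members stayed within 1.5 times the count with all libraries, and 0 of the member values past the threshold changed sign. Leaving out 1 library at a time gave 25 to 28 called members for SMC2 against SMC1, 28 to 34 for SMC2 and 31 to 35 for SMC1 against Progenitor, 27 to 29 for SMC2 and 25 to 30 for SMC1 against Intermediate, 17 to 25 for Intermediate against Progenitor, and 35 to 38 for any difference. With the replicate block, 28 members were called for SMC2 against SMC1, 33 and 35 for SMC2 and SMC1 against Progenitor, 29 and 28 for SMC2 and SMC1 against Intermediate, and 23 (15 higher, 8 lower) for Intermediate against Progenitor, where the numbers were taken as pairs. Of 171 called values among the 258 values of members in the 6 comparisons, 27 lost their call in at least 1 alternative, and the cause was not tested. Upper-quartile factors moved the median of all genes by 0.11 for SMC2 minus SMC1, -0.18 for SMC1 minus Progenitor and -0.16 for Intermediate minus Progenitor. Members under about 1 CPM rest on few reads, so differences among them were not detectable at this depth unless large.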
